A study of Mus musculus with 24 samples.

Results

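CD4 T cells lacking Batf and Batf3 were compared with wild-type cells after 4 days at the higher of the doses of T cell receptor stimulation in the series. The comparison uses 6 of the 24 gene arrays of the series, chosen by sample title: 3 arrays of double-knockout cells (DKO) and 3 arrays of wild-type cells (WT), both stimulated through the receptor with anti-CD3e antibody at 10 ng/ml. All cells were naive CD4 T cells of 129SvEv mice, put into TH2-polarising culture with anti-CD3e in solution and with anti-CD28, the costimulatory antibody, bound through a plate-held second antibody. The DKO mice carried Batf1/3DKO alleles, as the labels name them, and the labels do not say which exons are missing. The other 18 arrays hold both genotypes at day 0, at day 2 (no dose given) and at day 4 with 2.2 ng/ml, with 3 arrays in each group. The labels do not say whether the 3 replicates of a group were separate mice or cultures, so a p-value here is set against the spread among these samples, and that spread may be technical.

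Batf and Batf3 are small basic leucine zipper factors of the AP-1 family. They have no activation domain of their own, pair with Jun proteins, and bind DNA together with the interferon regulatory factor Irf4 at composite elements called AICEs. In TH2 cells, the helper subset that makes the type 2 cytokines, Batf and Irf4 are known to be needed for much of the effector programme, and the amount of Irf4 follows the strength of the receptor signal. The title of the series asks how graded receptor signals are read by such composite elements.

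Values are array intensities on a linear scale, and differences are log2 values, DKO minus WT, with standard errors (SE) from a limma fit across 19938 genes. Folds are ratios of geometric means with 95% confidence intervals (CI), and a gene was called at an adjusted p under 0.05. The median gene had a mean intensity of 32.2, called the guide level here: readings no higher than that may be background, and folds computed from them then depend on it. The 6 arrays had median intensities between 27.0 and 28.9 and correlated with the others of their group at 0.9879 to 0.9915. Along the second principal component, which held 14.9% of the variance, the WT arrays at 10 ng/ml lay between 51.6 and 56.9, the DKO arrays at 10 ng/ml between -4.1 and 0.5, and every other array of the series below 5.

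Between DKO and WT cells, 2545 genes were called at 10 ng/ml, which is 12.8% of the genes tested. Of these, 1214 were lower in DKO cells (6.09% of the genes tested) and 1331 higher (6.68%). Lower genes moved further. Of those that changed at least 2-fold, 436 were lower (2.19%) and 259 higher (1.3%), and of those that changed at least 8-fold, 51 were lower and 8 higher. The arrays of the genotypes did not overlap for 434 of the 436 lower genes and for 259 of the 259 higher genes, against 27.0% of all genes tested. These genes were picked on the same arrays, so such separation is largely built in and gives no separate support. All 3 DKO arrays were at or below the guide level for 147 of the 436 lower genes (33.7%), against 47.5% of all genes tested, and all 3 WT arrays for 67 of the 259 higher genes (25.9%), against 47.2%. With 16 added to every value before taking log2, which pulls dim values together, the fold of 31 of 97 called genes given below changed by a factor of over 1.5. All 97 kept their call. The plot of difference against adjusted p shows these genes.

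**Figure D1:**
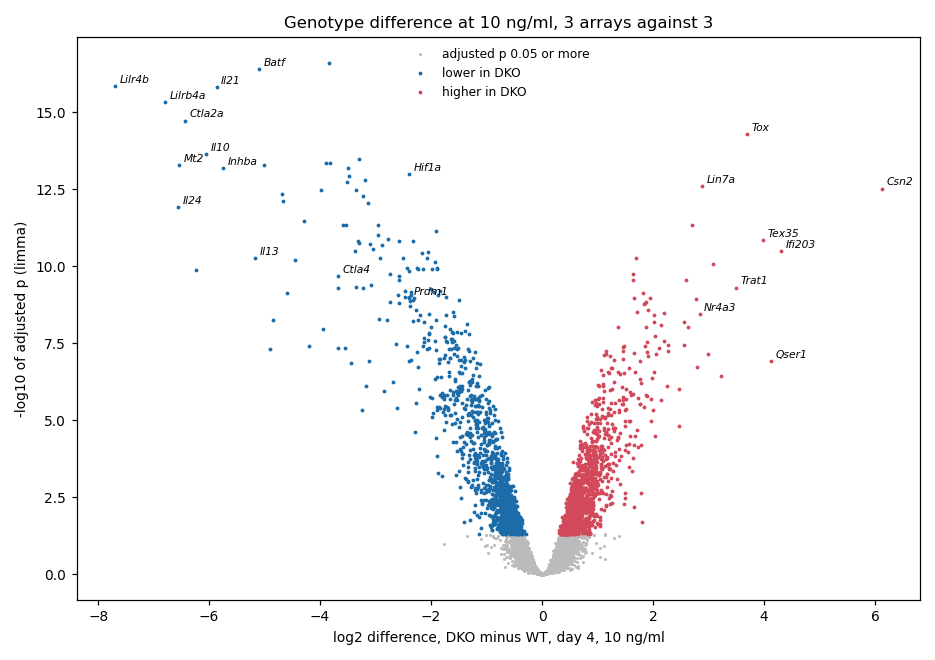
Log2 difference, DKO minus WT at day 4 with 10 ng/ml (x axis), against -log10 of the limma adjusted p (y axis) for the 19938 genes tested, 3 arrays against 3. Blue points are the 1214 genes called lower in DKO cells, red points the 1331 called higher, and the blue points reach further from 0, down to -7.69 for Lilr4b.

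The targeted genes came first. Batf read 1696, 1497 and 1593 on the WT arrays and 43.0, 44.4 and 52.1 on the DKO arrays, 34.4-fold (95% CI 27.5 to 42.9) lower (adjusted p = 3.89e-17). Batf3 read 156, 173 and 109.7 in WT cells and 33.3, 24.7 and 31.5 in DKO cells, 4.86-fold (95% CI 3.71 to 6.36) lower (adjusted p = 2.71e-09). Both genes were thus separated on every array, as the genotype labels state, and the DKO level of Batf3 was at about the guide level. In WT cells Batf3 was this high at 10 ng/ml alone, with 33.7, 29.7 and 23.5 at 2.2 ng/ml, so it checks the labels at this dose.

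Irf4, the partner of Batf at composite elements, did not pass the test. It read 1399, 1197 and 1315 in WT and 878, 971 and 838 in DKO cells, a difference of -0.54 ± 0.21 (SE, adjusted p = 0.112), and the arrays did not overlap. It was called lower under 3 alternatives, with an adjusted p of 0.0358 after cyclic loess, 0.0148 when the 6 arrays were fitted alone and 0.0409 with array weights. Its level was far lower at 2.2 ng/ml in both genotypes, 338, 267 and 588 in WT and 281, 418 and 352 in DKO cells. Irf8, a related factor, read 109, 109 and 169.6 in WT and 105, 129 and 124 in DKO cells (adjusted p = 0.888), and the groups overlapped.

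For this and every later gene list at 10 ng/ml, the shares over all genes are 6.68% called higher and 6.09% lower. Of 20 measured BATF, AP-1 and IRF factors, 8 were lower and 2 higher at 10 ng/ml, with a median difference of -0.34 against 0.031 over all genes. The 8 include the targeted pair, and 5 were lower without WT replicate 1 or without DKO replicate 1. Fosl2, a Fos-family factor that can pair with Jun, read 521, 581 and 514 in WT and 54.2, 57.0 and 73.9 in DKO cells, 8.80-fold (95% CI 6.93 to 11.2) lower (adjusted p = 8.87e-13). Atf3, a stress-induced factor of the same wider family, read 249, 329 and 357 in WT and 48.4, 132 and 78.0 in DKO cells, 3.89-fold (95% CI 2.67 to 5.66) lower (adjusted p = 5.84e-06). Neither gene's groups overlapped, and the Atf3 values of the DKO arrays spread widely. In the other direction, Nfatc1, a calcium-driven factor downstream of the receptor, read 107, 120.2 and 86.3 in WT and 228, 228 and 273 in DKO cells, 2.34-fold (95% CI 1.96 to 2.80) higher (adjusted p = 7.90e-08). Jun itself gave 208, 161 and 161 in WT and 121, 144 and 156 in DKO cells (adjusted p = 0.383), with every DKO array below every WT array and no call.

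The 250 bases before the start of 15614 of these genes could be read from RefSeq promoters (GRCm38.p6), and they are shown here for lower genes because BATF-containing dimers bind AP-1 sites. Searched on both strands were the AP-1 site TGANTCA and a pair of composite forms that contain it and add letters bound by Irf factors: GAAA directly before that site, and TTTC with 4 bases of any kind between it and that site. The AP-1 site stood before 37 of 356 genes lower at least 2-fold (10.4%), 10 of 204 genes higher at least 2-fold (4.9%) and 1112 of all 15614 (7.12%). The GAAA form stood before 20 genes (0.128%), among them 2 of the lower genes, Ccr4 and Hamp, and the TTTC form before 12 (0.0769%), among them 1 lower gene, Tpbg. No gene higher at least 2-fold held either composite form. Each sequence below runs 5′ to 3′ on the strand of its gene, and capitals mark the matched site. A match is a description of these letters, no binding was measured here, and most enhancers lie outside this window.
Ccr4 (chr9:114496651-114496721, gene on the minus strand): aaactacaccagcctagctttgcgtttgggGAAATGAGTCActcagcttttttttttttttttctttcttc
Hamp (chr7:30944080-30944150, gene on the minus strand): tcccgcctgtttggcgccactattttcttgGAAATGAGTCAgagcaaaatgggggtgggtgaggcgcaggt
Tpbg (chr9:85842130-85842184, gene on the plus strand): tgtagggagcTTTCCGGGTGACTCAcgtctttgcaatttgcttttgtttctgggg
Ctla2a (chr13:60936718-60936784, gene on the minus strand): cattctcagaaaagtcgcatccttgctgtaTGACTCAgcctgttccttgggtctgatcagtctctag
Lif (chr11:4257318-4257376, gene on the plus strand): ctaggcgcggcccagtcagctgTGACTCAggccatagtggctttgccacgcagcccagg
Prdm1 (chr10:44458760-44458826, gene on the minus strand): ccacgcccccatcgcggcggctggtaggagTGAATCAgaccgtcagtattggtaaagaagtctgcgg
Ecm1 (chr3:95739597-95739663, gene on the minus strand): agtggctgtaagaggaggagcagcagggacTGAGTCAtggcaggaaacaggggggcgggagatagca
Mt2 (chr8:94172509-94172575, gene on the plus strand): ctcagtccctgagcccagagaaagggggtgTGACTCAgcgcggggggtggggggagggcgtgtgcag
Tnfrsf8 (chr4:145315260-145315326, gene on the minus strand): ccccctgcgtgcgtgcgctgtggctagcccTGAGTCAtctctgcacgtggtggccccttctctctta
The 3 genes with composite forms differed in level. Ccr4 read 861, 903 and 779 in WT and 266, 261 and 239 in DKO cells, 3.32-fold (95% CI 2.74 to 4.03) lower (adjusted p = 9.70e-10). Hamp, the gene of the iron hormone hepcidin, read 52.7, 163 and 150.3 in WT and 8.98, 17.8 and 9.42 in DKO cells (-3.25 ± 0.43, SE, adjusted p = 4.74e-06). Tpbg, a surface glycoprotein, read 36.5, 21.6 and 37.6 in WT and 13.9, 12.2 and 12.3 in DKO cells (-1.27 ± 0.16, SE, adjusted p = 3.18e-06). No groups overlapped, but Tpbg lay close to the guide level even in WT cells. The other 6 promoters hold the AP-1 site alone and are a choice from the 37 lower genes with that site, not all of them. The values of their genes follow below.

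Cytokines had the lowest median of the gene lists. Of 16 measured TH2 and related cytokines, 9 were lower in DKO cells and 1 was higher, with a median difference of -2.0, and 2 were higher without WT replicate 3. Il13, which drives mucus production and tissue eosinophilia, read 1659.9, 1614 and 3052 in WT and 44.6, 61.7 and 62.9 in DKO cells, 36.2-fold (95% CI 22.1 to 59.1) lower (adjusted p = 5.52e-11). Il4, the cytokine that also drives the TH2 fate, read 264, 342 and 386 in WT and 18.8, 23.6 and 21.6 in DKO cells, 15.4-fold (95% CI 9.27 to 25.5) lower (adjusted p = 1.07e-08). Il5, the eosinophil growth factor, was dim even in WT cells at 30.2, 28.9 and 75.6, against 8.42, 7.86 and 9.54 in DKO cells (-2.24 ± 0.24, SE, adjusted p = 1.81e-07). All DKO arrays were below all WT arrays for these 3 genes, and those of Il4 and Il5 were below the guide level.

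Il24, Il10, Il21 and Inhba had the largest fitted losses of that list, in an order that depends on the background. Il10, a suppressive cytokine, read 462, 410.5 and 897 in WT and 8.57, 8.99 and 7.44 in DKO cells, 66.7-fold (95% CI 46.0 to 96.7) lower (adjusted p = 2.17e-14). Il24, an Il10-family cytokine, read 1021, 1188 and 1538 in WT and 12.5, 12 and 14.9 in DKO cells, 94.2-fold (95% CI 56.7 to 157) lower (adjusted p = 1.20e-12). Il21, which acts on B cells, read 386, 335 and 396 in WT and 5.91, 5.56 and 7.87 in DKO cells, 58.3-fold (95% CI 44.1 to 77.1) lower (adjusted p = 1.48e-16). Each of the 3 was bright in WT cells and far below the guide level on every DKO array, so the folds depend on the background: with 16 added, the differences were -4.55 for Il10, -5.42 for Il24 and -4.11 for Il21 in place of -6.06, -6.56 and -5.87. On that scale Inhba (-5.02) and Il13 came before Il10 and Il21.

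Inhba, the subunit of activin A, read 1153, 1594 and 1122 in WT and 22.3, 27.3 and 21.7 in DKO cells, 53.9-fold (95% CI 36.9 to 78.8) lower (adjusted p = 6.40e-14). Lif, an Il6-family cytokine, read 2764, 2388 and 3388 in WT and 187, 359 and 307 in DKO cells, 10.3-fold (95% CI 7.17 to 14.7) lower (adjusted p = 4.72e-10), and it was still well above the guide level without Batf and Batf3. Csf2, which encodes GM-CSF, was the member that was higher, but its level was low: 11.6, 11.9 and 12.9 in WT and 20.3, 24.9 and 30.9 in DKO cells, all below the guide level (1.04 ± 0.17, SE, adjusted p = 9.12e-05). Tnf read 89.8, 56.9 and 122 in WT and 150.2, 153 and 192 in DKO cells and missed the threshold (adjusted p = 0.0544), with every DKO array above every WT array. It was called higher under 5 alternatives, at an adjusted p between 0.0189 and 0.0465. Il2, the T cell growth factor, gave 26.4, 19.1 and 65.5 in WT and 40.6, 61.1 and 38.4 in DKO cells (adjusted p = 0.611), and the groups overlapped.

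**Figure D2:**
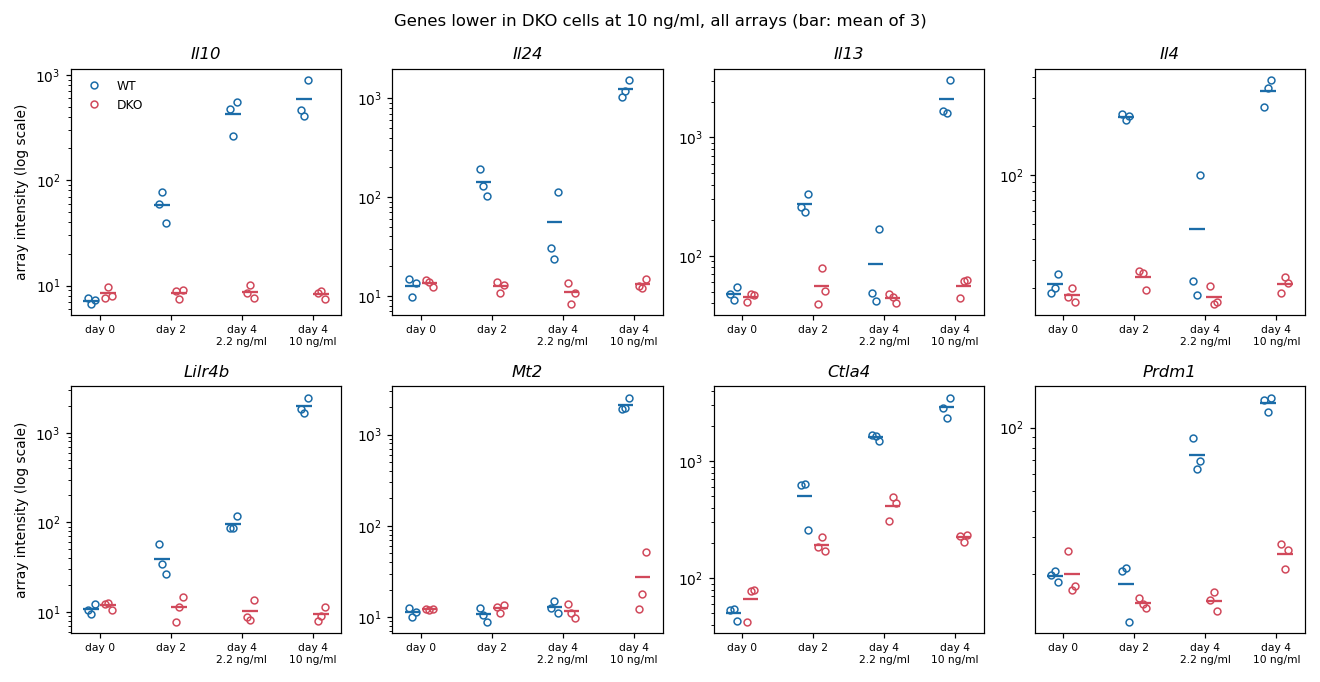
Array intensity on a log scale (y axis) of 8 genes lower in DKO cells at 10 ng/ml, in the 4 states (x axis), with 3 WT arrays (blue) and 3 DKO arrays (red) each and a bar at their mean. Lilr4b read at least 1646 and Mt2 at least 1889 on the WT arrays at 10 ng/ml, and at most 117 and 14.9 on the other WT arrays. Lilr4b, Il10, Il24, Ctla4 and Prdm1 were also lower in DKO cells at 2.2 ng/ml. Lilr4b read 86.2, 86.1 and 117 in WT and 8.82, 8.13 and 13.8 in DKO cells at that dose.

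TH2 regulators and receptors had a smaller median loss. Of 17 measured, 12 were lower and 1 higher, with a median difference of -1.01, and 0 were higher without DKO replicate 1 or with dim genes left out. Gata3, the factor that defines the TH2 lineage, was among them, with 1576, 1631 and 1233 in WT and 881, 832 and 717 in DKO cells, 1.82-fold (95% CI 1.51 to 2.19) lower (adjusted p = 2.46e-05). Maf, which activates Il4, read 60.4, 76.7 and 74.4 in WT and 23.8, 28.9 and 32.1 in DKO cells, 2.50-fold (95% CI 1.82 to 3.44) lower (adjusted p = 0.000134). Stat6, which carries the Il4 signal, did not pass the test, with 309, 241 and 315 in WT and 289.9, 285 and 305 in DKO cells (adjusted p = 0.935). Gata3 and Maf groups did not overlap, and Stat6 groups did. At 2.2 ng/ml the list of 17 held 10 lower and 0 higher genes, with a median difference of -1.15, against 2.06% and 1.65% of all genes.

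Pparg, a nuclear receptor of lipid metabolism used by TH2 cells, read 227, 202 and 202 in WT and 24.7, 19.3 and 20.3 in DKO cells, 9.84-fold (95% CI 8.0 to 12.1) lower (adjusted p = 3.37e-14). Cysltr1, a receptor for cysteinyl leukotrienes, read 134, 143 and 213 in WT and 11.5, 10.6 and 10.3 in DKO cells, 14.8-fold (95% CI 11.5 to 19.0) lower (adjusted p = 4.24e-14). Ecm1, a secreted protein known to help TH2 cells leave lymph nodes, read 2815, 2761 and 2219 in WT and 386, 324 and 314 in DKO cells, 7.60-fold (95% CI 5.76 to 10.0) lower (adjusted p = 5.52e-11). All 3 were separated by genotype, and Pparg and Cysltr1 were at background level in DKO cells. Il4ra, the receptor chain shared by Il4 and Il13, was 2.41-fold (95% CI 1.96 to 2.97) lower, at 1396 ± 167 in WT and 578 ± 62.0 in DKO cells (mean ± SD, n = 3, adjusted p = 5.84e-07). The chemokine receptor Ccr4, shown above, belongs to the same list.

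Effector regulators split. Of 18 measured, 8 were lower and 3 higher (median -0.33), and 5 were lower without WT replicate 3 or without DKO replicate 2. Hif1a, the oxygen-regulated factor that drives glycolytic genes, read 1759, 1799 and 1796 in WT and 346, 314 and 358 in DKO cells, 5.27-fold (95% CI 4.48 to 6.19) lower (adjusted p = 9.74e-14). Ahr, the aryl hydrocarbon receptor, read 249.8, 231 and 329 in WT and 22.5, 22.4 and 35.0 in DKO cells, 10.2-fold (95% CI 8.02 to 13.0) lower (adjusted p = 3.31e-13). Prdm1, which encodes Blimp-1, a transcriptional repressor of effector T cells, read 136, 119 and 139 in WT and 27.9, 21.2 and 26.0 in DKO cells, 5.26-fold (95% CI 4.02 to 6.89) lower (adjusted p = 1.07e-09). Each was lower on every DKO array, and Prdm1 fell below the guide level.

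In the same list, Tox, a nuclear factor of T cell development and exhaustion, was higher in DKO cells. It read 29.3, 31.7 and 22.0 in WT and 393, 363 and 315 in DKO cells, 13.0-fold (95% CI 10.5 to 16.1) higher (adjusted p = 4.96e-15). Nr4a3, an orphan nuclear receptor induced by receptor signals, read 30.3, 33.8 and 44.1 in WT and 191, 270.3 and 321 in DKO cells, 7.16-fold (95% CI 5.08 to 10.1) higher (adjusted p = 3.60e-09). Bhlhe40, a cytokine regulator, was 2.30-fold (95% CI 1.60 to 3.32) lower, at 905 ± 311 in WT and 379.6 ± 45.4 in DKO cells (mean ± SD, n = 3, adjusted p = 0.00163). Myc, a driver of growth, gave 1557, 1758 and 2051 in WT and 1644, 1737 and 1668 in DKO cells (adjusted p = 0.831), with overlapping groups.

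TH1 genes were not higher as a group: of 17 measured, 6 were lower and 2 higher, with a median of 0.0, and 3 were lower with dim genes left out. The lower ones included cytokine receptors. Il12rb2, the inducible chain of the Il12 receptor, read 291, 242 and 392 in WT and 18.4, 31.8 and 26.7 in DKO cells, 12.1-fold (95% CI 8.96 to 16.3) lower (adjusted p = 4.69e-12). Il12rb1, its constant chain, read 259.7, 304 and 255 in WT and 81.3, 71.1 and 67.5 in DKO cells, 3.72-fold (95% CI 3.08 to 4.49) lower (adjusted p = 1.19e-10). Il18r1 was 3.62-fold (95% CI 2.74 to 4.78) lower, at 49.2 ± 8.60 in WT and 13.6 ± 2.60 in DKO cells (mean ± SD, n = 3, adjusted p = 1.35e-07). 

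The 2 higher TH1 genes were Stat4 and Eomes. Stat4, which carries the Il12 signal, read 106, 75.9 and 77.1 in WT and 195, 163 and 164 in DKO cells, 2.03-fold (95% CI 1.60 to 2.58) higher (adjusted p = 9.27e-05). Eomes, a T-box factor, read 18, 19.4 and 20.1 in WT and 62.1, 38.2 and 40.2 in DKO cells, 2.39-fold (95% CI 1.56 to 3.67) higher (adjusted p = 0.00483), still near the guide level. The lineage factor Tbx21 gave 21.9, 23.8 and 23.8 in WT and 21.5, 23.7 and 27.1 in DKO cells (adjusted p = 0.906), and Ifng gave 9.68, 12.7 and 9.48 in WT and 13.0, 10.3 and 14.5 in DKO cells (adjusted p = 0.548). Both lay below the guide level on all 6 arrays. Of 6 measured TH17 genes, 1 was higher (median 0.04), against 6.68% of all genes. That count was 0 without any 1 of WT replicates 1 and 3 and DKO replicates 1, 2 and 3.

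Receptors that mark activated or regulatory T cells moved in both directions. Ctla4, the inhibitory receptor that binds B7 molecules, read 2832, 2359 and 3492 in WT and 228, 206 and 236 in DKO cells, 12.8-fold (95% CI 8.79 to 18.7) lower (adjusted p = 2.09e-10). Il2ra, the high-affinity chain of the Il2 receptor, read 3367, 3077 and 3954 in WT and 1429, 1614 and 1427 in DKO cells, 2.32-fold (95% CI 1.72 to 3.13) lower (adjusted p = 0.000173). Tnfrsf9, the costimulatory receptor 4-1BB, was 2.03-fold (95% CI 1.60 to 2.59) lower, at 447 ± 91.7 in WT and 219.7 ± 44.7 in DKO cells (mean ± SD, n = 3, adjusted p = 9.20e-05). In contrast, Nrp1, a semaphorin coreceptor, read 13.4, 15.5 and 17.8 in WT and 84.9, 111 and 87.6 in DKO cells, 6.06-fold (95% CI 4.62 to 7.94) higher (adjusted p = 2.77e-10), from below to above the guide level. The 13 regulatory T cell genes held 7 lower and 2 higher (median -0.47). The 7 were 4 without any 1 of WT replicates 1, 2 and 3 or DKO replicate 2, 3 without DKO replicate 1, and 4 after quantile normalization, and the 2 were 1 without WT replicate 1.

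Among 16 costimulatory and inhibitory receptors and ligands, 4 were lower and 4 higher (median -0.1). Tnfrsf8, which encodes CD30, read 495, 404 and 359 in WT and 36.0, 46.7 and 27.9 in DKO cells, 11.5-fold (95% CI 8.60 to 15.4) lower (adjusted p = 4.69e-12). Tigit, an inhibitory receptor, read 912, 691 and 871 in WT and 103, 183 and 122 in DKO cells, 6.21-fold (95% CI 4.33 to 8.91) lower (adjusted p = 3.37e-08). The 4 higher were Tnfsf11, Cd40lg, Cd274 and Havcr2. Tnfsf11, which encodes RANKL, read 70.3, 98.0 and 102 in WT and 357, 318 and 406 in DKO cells, 4.03-fold (95% CI 3.14 to 5.18) higher (adjusted p = 6.29e-09), and Cd40lg, the helper signal for B cells, was 2.82-fold (95% CI 2.13 to 3.74) higher (adjusted p = 4.73e-06). No group overlapped for Tnfrsf8, Tigit, Tnfsf11 and Cd40lg.

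Of 12 T follicular helper genes, 3 were lower and 2 higher (median 0.18), and 1 was higher without any 1 of WT replicate 3 and DKO replicates 1, 2 and 3, after cyclic loess or quantile normalization, or with the 6 arrays fitted alone. Icos, a costimulatory receptor, read 513, 575 and 532 in WT and 1010.0, 1064 and 928 in DKO cells, 1.85-fold (95% CI 1.55 to 2.21) higher (adjusted p = 1.11e-05). Sh2d1a, the adaptor SAP, was 2.49-fold (95% CI 2.01 to 3.09) lower and Il6ra, the Il6 receptor, 2.83-fold (95% CI 2.19 to 3.65) lower (adjusted p = 5.80e-07 and adjusted p = 1.02e-06). Bcl6, the lineage factor, was not called, with 75.8, 87.6 and 26.9 in WT and 99.2, 54.9 and 49.0 in DKO cells (adjusted p = 0.836), and Cxcr5 was below 10 on all 6 arrays.

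Outside the lists, the gene that fell furthest was Lilr4b, an immunoglobulin-like receptor. It read 1839.6, 1646 and 2459.8 in WT and 7.94, 9.15 and 11.5 in DKO cells, 207-fold (95% CI 144 to 297) lower (adjusted p = 1.37e-16). Its near-identical neighbour Lilrb4a read 1183, 1219 and 1975 in WT and 11.8, 11.8 and 15.0 in DKO cells, 111-fold (95% CI 78.8 to 157) lower (adjusted p = 4.60e-16), and probes of the pair may share signal. The DKO levels were at background, and with 16 added the differences were -6.27 and -5.64 in place of -7.69 and -6.80. 

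The metallothioneins Mt2 and Mt1, small proteins that bind zinc, fell together and may also share probe signal. Mt2 read 1889, 1944 and 2532 in WT and 12.3, 18.1 and 51.5 in DKO cells, 93.2-fold (95% CI 61.0 to 142) lower (adjusted p = 4.94e-14). The DKO arrays were unlike each other, replicate 3 being the highest, and without it the log2 difference was -7.14 in place of -6.54. Mt1 read 2059, 1982 and 2855 in WT and 87.3, 93.8 and 99.3 in DKO cells, 24.3-fold (95% CI 14.7 to 40.3) lower (adjusted p = 7.27e-10). Of 9 metallothioneins and zinc transporters measured, 3 were lower and 0 higher (median -0.19).

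Enzymes and secreted proteins followed. Ctla2a, a cysteine protease inhibitor with a close paralog, read 687, 490.2 and 608 in WT and 7.72, 6.53 and 6.22 in DKO cells, 86.8-fold (95% CI 61.2 to 123) lower (adjusted p = 1.83e-15). Tgm2, a transglutaminase, read 2053, 1659 and 2107 in WT and 39.0, 83.1 and 65.2 in DKO cells, 32.4-fold (95% CI 23.4 to 44.8) lower (adjusted p = 4.94e-14). Gatm, the first enzyme of creatine synthesis, read 747, 519.9 and 803 in WT and 23.2, 28.7 and 27.8 in DKO cells, 25.6-fold (95% CI 18.1 to 36.1) lower (adjusted p = 4.54e-13). No groups overlapped, and on the DKO arrays Ctla2a and Gatm were below the guide level and Tgm2 above it.

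Genes of secreted hormones and matrix proteins were in the same set. Nts, the gene of the peptide neurotensin, read 339, 277 and 1206 in WT and 15.4, 18 and 15.6 in DKO cells, 29.8-fold (95% CI 15.0 to 59.2) lower (adjusted p = 4.83e-08), and WT replicate 3 was the highest, the difference being -4.24 without it in place of -4.89. Pth, parathyroid hormone, read 122, 84.4 and 341 in WT and 6.27, 7.88 and 6.71 in DKO cells, 22.0-fold (95% CI 14.3 to 33.6) lower (adjusted p = 6.33e-11). Timp1, an inhibitor of matrix proteases, read 236, 158 and 465 in WT and 13.7, 13.9 and 12.2 in DKO cells, 19.6-fold (95% CI 13.8 to 27.7) lower (adjusted p = 3.34e-12). In these 3 genes and in Ifitm3, an interferon-inducible membrane protein (444, 387 and 788 in WT, 6.97, 6.37 and 7.25 in DKO cells, adjusted p = 1.34e-10), WT replicate 3 read highest.

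Gpr65, a receptor that senses acid, was chosen after its values at the doses were seen, so it is given as a description. It read 376, 375 and 610.3 in WT and 37.3, 40.9 and 26.6 in DKO cells at 10 ng/ml, 12.8-fold (95% CI 8.65 to 19.1) lower (adjusted p = 4.87e-10). At 2.2 ng/ml it read 346, 299 and 399 in WT and 420.2, 411 and 331 in DKO cells, where the groups overlapped.

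Among genes higher in DKO cells the leader was Csn2, the milk protein beta-casein, a known target of Stat5 in breast tissue. It read 17.2, 14.3 and 13.8 in WT and 685, 1235 and 1356 in DKO cells, 69.7-fold (95% CI 44.9 to 108) higher (adjusted p = 2.96e-13). Csf1, the macrophage growth factor, read 35.0, 34.5 and 32.1 in WT and 376, 261 and 242 in DKO cells, 8.5-fold (95% CI 6.29 to 11.5) higher (adjusted p = 8.46e-11). Tnfsf10, the death ligand TRAIL, read 24.5, 20.3 and 32.8 in WT and 218, 174 and 144 in DKO cells, 6.94-fold (95% CI 4.53 to 10.6) higher (adjusted p = 1.81e-07). These secreted or surface proteins were near or below the guide level on the WT arrays and above it on every DKO array.

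Another set of higher genes was low in WT cells at 10 ng/ml and not in the other groups of day 4. Trat1, an adaptor that stabilises the T cell receptor complex, read 24.1, 22.3 and 15.5 in WT and 315, 195 and 197 in DKO cells at 10 ng/ml, 11.3-fold (95% CI 7.78 to 16.5) higher (adjusted p = 4.87e-10), and 547, 563 and 469.9 in WT and 326, 391 and 396 in DKO cells at 2.2 ng/ml. Dapl1, a gene of resting T cells, read 66.3, 64.7 and 23.9 in WT and 659, 314 and 408 in DKO cells at 10 ng/ml, 9.36-fold (95% CI 5.60 to 15.6) higher (adjusted p = 3.62e-07), and 747, 459.5 and 393 in WT and 218, 279 and 457 in DKO cells at 2.2 ng/ml. Ifi203, of a family of interferon-inducible DNA-binding proteins whose members are alike in sequence, read 16.6, 12.2 and 13.7 in WT and 297, 245 and 297 in DKO cells at 10 ng/ml, 19.8-fold (95% CI 13.3 to 29.5) higher (adjusted p = 3.28e-11). For Tox, Dapl1 and Ifi203 the DKO arrays at 10 ng/ml lay within the range of the 6 arrays at 2.2 ng/ml, apart from the WT arrays at 10 ng/ml, and those of Trat1 lay between the WT arrays and that range.

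**Figure D3:**
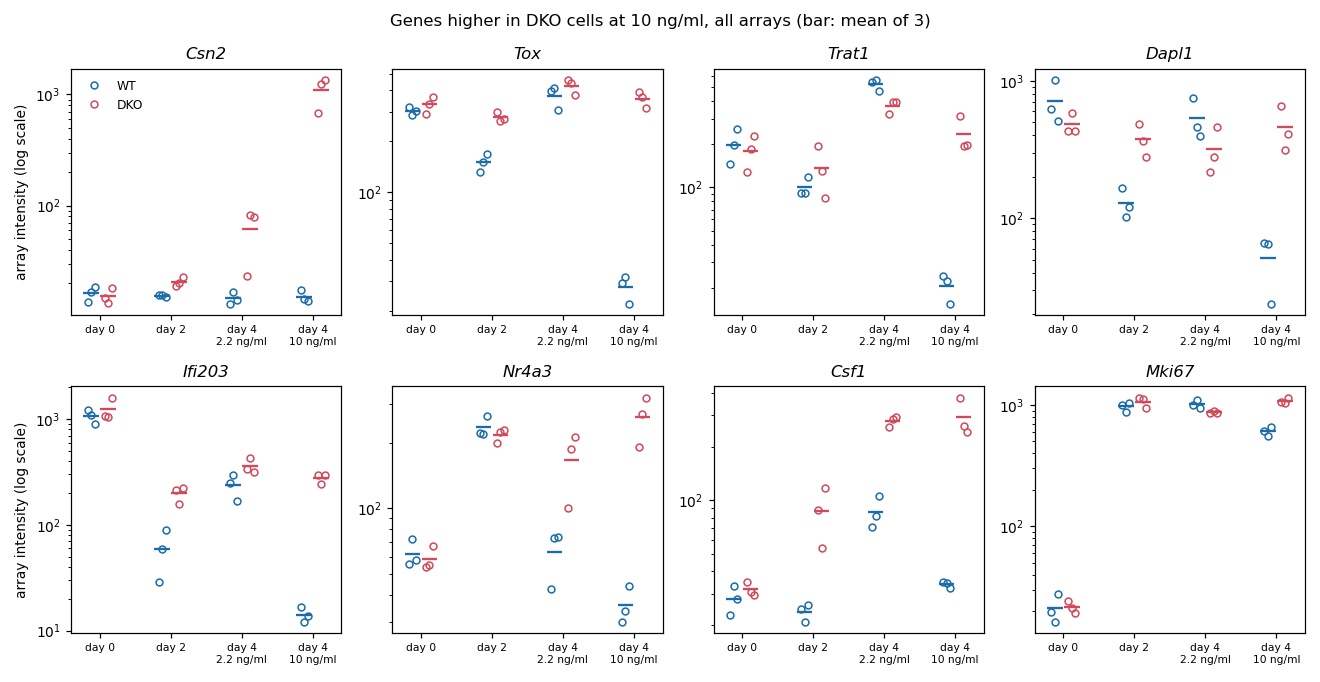
Array intensity on a log scale (y axis) of 8 genes higher in DKO cells at 10 ng/ml, in the 4 states (x axis), with 3 WT arrays (blue) and 3 DKO arrays (red) each and a bar at their mean. Tox and Trat1 had their lowest readings on the WT arrays at 10 ng/ml, while Csn2 read at least 685 on the DKO arrays at 10 ng/ml and at most 82.5 on all other arrays.

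Surface receptors Cd96 and Cd69 also rose. Cd96, an adhesion receptor, read 26.3, 40.2 and 24.5 in WT and 227, 162 and 222 in DKO cells, 6.81-fold (95% CI 4.98 to 9.30) higher (adjusted p = 1.11e-09). Cd69, an early activation marker that holds cells in tissue, read 50.2, 28.2 and 28.1 in WT and 169, 211 and 193 in DKO cells, 5.57-fold (95% CI 3.67 to 8.46) higher (adjusted p = 9.31e-07). Qser1, Tex35 and Lin7a, whose function in T cells is less known, were 17.5-fold, 15.8-fold and 7.39-fold higher, from WT levels below the guide level.

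Naive and quiescence genes moved in both directions. Of 18 measured, 8 were higher and 4 lower (median 0.22). Foxp1, a factor that maintains quiescence, read 109, 99.1 and 79.8 in WT and 349.5, 330.2 and 329 in DKO cells, 3.53-fold (95% CI 2.89 to 4.32) higher (adjusted p = 7.61e-10). Ms4a4b, a membrane protein of resting T cells, read 11.5, 8.89 and 7.71 in WT and 53.7, 26.5 and 37.8 in DKO cells, 4.08-fold (95% CI 2.63 to 6.33) higher (adjusted p = 3.19e-05). Foxo1, which sustains homing receptors, went down instead, with 572, 580.2 and 405 in WT and 207, 165 and 183 in DKO cells, 2.79-fold (95% CI 2.18 to 3.56) lower (adjusted p = 7.55e-07). S1pr1, the receptor for lymph node exit, was 2.44-fold (95% CI 1.66 to 3.59) lower (adjusted p = 0.0015) and Satb1, a chromatin organiser, 1.75-fold (95% CI 1.47 to 2.10) lower (adjusted p = 4.01e-05). Ccr7, Il7r and Lef1, classic markers of naive cells, were not called, at 0.17 ± 0.17, -0.39 ± 0.20 and 0.27 ± 0.13 (SE).

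Genes that define T cells were present in both genotypes. Cd3e read 1383, 1346 and 1225 in WT and 1193, 1129 and 1199 in DKO cells (adjusted p = 0.573), and Cd4 read 804, 773 and 630.4 in WT and 765, 756 and 681 in DKO cells (adjusted p = 0.996). Of 11 measured T cell identity genes, 1 was higher, Trat1, and 1 lower, Cd2 (median 0.0), and 2 were lower after cyclic loess or with 16 added. Cd2, an adhesion receptor, was at 1869.8 ± 65.0 in WT and 969 ± 137 in DKO cells (mean ± SD, n = 3, adjusted p = 2.45e-06). In bulk samples, fewer cells of a type and less RNA per cell cannot be told apart.

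Markers of other cells were mostly at background. Of 48 measured, 35 were at or below the guide level on all 6 arrays, 4 were higher in DKO cells (Cd79b, Ctss, Cd74 and Hdc) and 4 lower (Fcgr3, H2-Ab1, Epcam and Pecam1). Over all genes, 6.68% were called higher and 6.09% lower. The summed intensity of the 48 markers ran from 1757 to 2055 in WT and from 1577 to 1722 in DKO cells. Cd74, the class II invariant chain, read 41.2, 34.1 and 39.2 in WT and 190.3, 188 and 175 in DKO cells, 4.85-fold (95% CI 3.54 to 6.64) higher (adjusted p = 3.70e-08). H2-Ab1, a class II chain, went the other way, with 877, 590.3 and 866 in WT and 203, 264 and 213 in DKO cells, 3.40-fold (95% CI 2.35 to 4.92) lower (adjusted p = 2.03e-05). The partner chain H2-Aa read at most 19.9 on the 6 arrays and Cd8a, which marks the other T cell lineage, at most 25.5, while Cd8b1, the other CD8 marker, had means above the guide level, 43.2 in WT and 61.5 in DKO cells (adjusted p = 0.343). The CD8 sum was 47.6 to 73.8 in WT and 70.5 to 106 in DKO cells. For B cell markers the summed intensity was 97.4 to 104 in WT and 150.2 to 191 in DKO cells, with 6 of 7 at or below the guide level and Cd79b above it on the DKO arrays, and for myeloid markers 302 to 352 and 418 to 484. The part of these shifts in the results above was not tested.

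Metabolic genes set the higher dose apart from the lower. Of 17 measured cholesterol and fatty acid synthesis genes, 8 were higher and 0 lower at 10 ng/ml (median 0.47), whereas 0 were higher and 11 lower at 2.2 ng/ml (median -0.79), where 1.65% of all genes were called higher and 2.06% lower. The test of the difference between doses called 15 of the 17 higher and 0 lower, against 3.56% and 3.38% of all genes. Single arrays bear on the counts: at 10 ng/ml 4 or 5 were higher without any 1 of the 6 arrays, and at 2.2 ng/ml 6 were lower without WT replicate 1 or DKO replicate 1 and 7 without WT replicate 3. Hmgcs1, an early enzyme of the mevalonate pathway, read 315, 296 and 286 in WT and 634, 688 and 619 in DKO cells at 10 ng/ml, 2.16-fold (95% CI 1.79 to 2.62) higher (adjusted p = 1.15e-06). At 2.2 ng/ml it read 329, 322 and 345 in WT and 179.5, 198 and 199.9 in DKO cells, 1.73-fold (95% CI 1.43 to 2.09) lower (adjusted p = 0.000451). The order of the genotypes was thus opposite at the doses, with no overlap at either.

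Cyp51, a sterol demethylase, was 1.59-fold (95% CI 1.30 to 1.94) higher at 10 ng/ml (adjusted p = 0.00156) and 1.83-fold (95% CI 1.49 to 2.24) lower at 2.2 ng/ml (adjusted p = 0.000277). Scd1, a fatty acid desaturase, read higher at 10 than at 2.2 ng/ml in both genotypes. It read 566, 505 and 649 in WT and 936, 1305 and 989 in DKO cells at 10 ng/ml, where it was not called (adjusted p = 0.198), and 82.3, 71.6 and 71.9 in WT and 10.3, 9.08 and 9.04 in DKO cells at 2.2 ng/ml, 7.95-fold (95% CI 4.37 to 14.5) lower (adjusted p = 3.88e-05). It was called higher at 10 ng/ml when the 6 arrays were fitted alone (adjusted p = 0.00346). The difference between doses for Scd1 was 3.89 ± 0.59 (SE, adjusted p = 9.62e-05).

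Glycolysis genes showed a similar shift between doses with less change at 10 ng/ml. Of 13 measured, 0 were higher and 3 lower at 10 ng/ml (median -0.14), 12 were lower at 2.2 ng/ml (median -0.98), and 9 were higher in the test between doses. The 3 were 1 without any 1 of WT replicates 1 and 3 and DKO replicates 1 and 2. Ldha, lactate dehydrogenase, read 2160.1, 1989 and 2283 in WT and 2228, 2435 and 2091 in DKO cells at 10 ng/ml (adjusted p = 0.895) and 2153, 1709 and 2199 in WT and 751, 1154 and 1359.7 in DKO cells at 2.2 ng/ml, 1.90-fold (95% CI 1.49 to 2.42) lower (adjusted p = 0.00119). The glucose transporter Slc2a1 was at 1057 ± 323 in WT and 934 ± 119 in DKO cells (mean ± SD, n = 3, adjusted p = 0.797) at 10 ng/ml, and 2.76-fold (95% CI 2.07 to 3.67) lower at 2.2 ng/ml (adjusted p = 2.91e-05). Slc2a3, another glucose transporter, was lower at 10 ng/ml, with 1357, 866 and 1404 in WT and 433, 493 and 690.0 in DKO cells, 2.24-fold (95% CI 1.59 to 3.15) lower (adjusted p = 0.00123). Of 17 amino acid and one-carbon genes, 6 were higher and 0 lower at 10 ng/ml (median 0.47), among them the glutamine transporter Slc1a5, 1.79-fold (95% CI 1.40 to 2.30) higher (adjusted p = 0.00126), and the 6 were 3 without WT or DKO replicate 1, 2 without WT replicate 2 and 1 without DKO replicate 2.

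Genes of cell division were higher in DKO cells. Of 15 measured mitosis genes, 11 were higher and 0 lower at 10 ng/ml (median 0.62), and of 18 DNA replication genes 15 were higher and 0 lower (median 0.68). Over all genes, 6.68% were called higher and 6.09% lower at this dose. Mki67, the proliferation marker Ki-67, read 605, 558 and 656 in WT and 1051, 1037 and 1149 in DKO cells, 1.78-fold (95% CI 1.45 to 2.19) higher (adjusted p = 0.000185). Kif11, a motor of the mitotic spindle, read 272, 261 and 294 in WT and 581, 604 and 593 in DKO cells, 2.16-fold (95% CI 1.84 to 2.53) higher (adjusted p = 7.32e-08). Tyms, thymidylate synthase, read 138, 136 and 176 in WT and 414, 438 and 378 in DKO cells, 2.74-fold (95% CI 2.12 to 3.55) higher (adjusted p = 1.82e-06). On all 3 genes the DKO arrays lay above the WT arrays, with smaller folds than the largest losses described above.

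At 2.2 ng/ml, where 1.65% of all genes were called higher and 2.06% lower, the same genes gave no rise. Of the 15 mitosis genes 0 were higher and 3 lower there, and 0 of the 18 replication genes were called either way. The 3 were 1 without any 1 of WT replicates 1 and 3 and DKO replicate 2. Mki67 read 994, 1098 and 944 in WT and 853, 893 and 864 in DKO cells at that dose (adjusted p = 0.631), so the low group was again WT at 10 ng/ml. The test between doses called 14 of the 15 mitosis genes and 12 of the 18 replication genes higher, against 3.56% of all genes. Mcm6, a replicative helicase subunit, was not called, with 729.7, 634 and 706 in WT and 683, 741 and 664 in DKO cells at 10 ng/ml (adjusted p = 0.981).

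**Figure D4:**
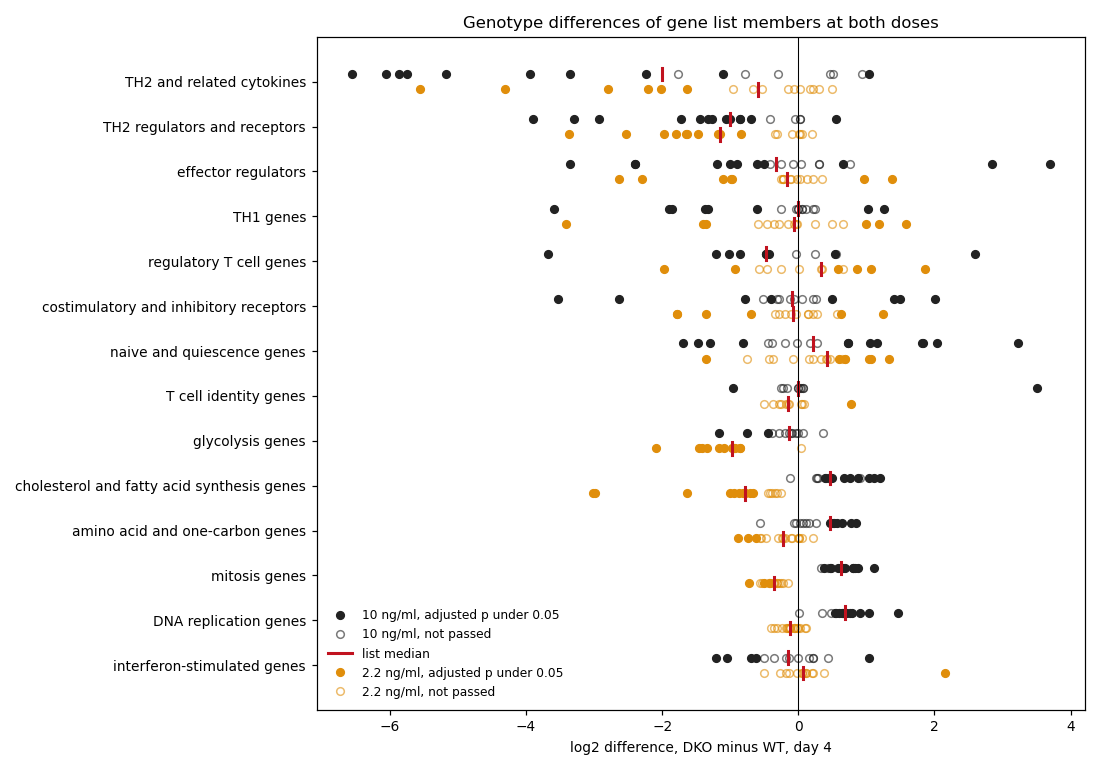
Log2 difference, DKO minus WT (x axis), of each measured member of 14 gene lists (rows), at 10 ng/ml (black) and 2.2 ng/ml (orange), with filled points for an adjusted p under 0.05 and a red bar at the list median. The cytokine medians were -2.0 at 10 ng/ml and -0.59 at 2.2 ng/ml, and the medians of the cholesterol list were 0.47 and -0.79, on opposite sides of 0.

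The lists of stress, survival and chemokine genes gave the counts below at 10 ng/ml, where 6.68% of all genes were called higher and 6.09% lower. Of 14 interferon-stimulated genes, 4 were lower and 1 higher (median -0.16), and with dim genes left out 2 and 0, Stat2, a signal carrier of type I interferon, being 2.31-fold (95% CI 1.82 to 2.94) lower (adjusted p = 1.04e-05). Of 15 chaperone and unfolded protein response genes, 2 were lower and 0 higher (median -0.23), 1 without any 1 of the 6 arrays or after quantile normalization. Xbp1, 1 of the 2 and a factor of secretory cells, read 526, 486 and 381 in WT and 214, 248 and 213 in DKO cells, 2.05-fold (95% CI 1.65 to 2.55) lower (adjusted p = 2.35e-05). Of 11 apoptosis and survival genes, 3 were lower and 2 higher (median 0.1), and 1 was lower without WT replicate 3 or DKO replicate 1. Bcl2l11, the death inducer BIM, was 1.69-fold (95% CI 1.30 to 2.21) higher (adjusted p = 0.00564), and Bcl2 was not called (-0.14 ± 0.13, SE, adjusted p = 0.623). Of 10 chemokines, 1 was higher, Ccl22, at 19.4 ± 1.56 in WT and 67.7 ± 22.0 in DKO cells (mean ± SD, n = 3, adjusted p = 2.89e-06), and 1 lower (median 0.02), which was 0 without any 1 of WT replicates 1 and 2 and DKO replicates 1 and 2.

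Across all genes, more were called at 10 ng/ml than at 2.2 ng/ml, where 739 genes were called (3.71%), 410 lower and 329 higher, on other arrays, of which 150 (0.752%) were lower and 72 (0.361%) higher at least 2-fold. The 329 fell to 187 without WT replicate 3, 204 without DKO replicate 1 and 171 without DKO replicate 2 of that dose. Of the 436 genes lower at least 2-fold at 10 ng/ml, 122 (28.0%) were also called lower at 2.2 ng/ml, which is 29.8% of the genes lower there. Of the 259 higher at least 2-fold, 67 (25.9%) were also higher at 2.2 ng/ml, which is 20.4% of the genes higher there. Over all 19938 genes the differences at the doses correlated at 0.32, as a description across genes of other arrays on the same platform. The test of the difference between doses called 1384 genes (6.94%), 710 with a higher and 674 with a lower value at 10 ng/ml, and of these 357 (1.79%) and 391 (1.96%) by at least 2-fold.

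Some genes were lower at both doses and did not pass the test between them. Batf read 1424, 1451 and 1652 in WT and 33.3, 26.7 and 36.5 in DKO cells at 2.2 ng/ml. Il10 was 47.1-fold (95% CI 32.5 to 68.2) lower at 2.2 ng/ml (adjusted p = 4.07e-13), Lif 19.8-fold (95% CI 13.9 to 28.4) (adjusted p = 3.02e-11) and Prdm1 4.92-fold (95% CI 3.76 to 6.44) (adjusted p = 8.65e-09). In that test the difference was 0.46 ± 0.22 for Batf, -0.50 ± 0.37 for Il10, 0.95 ± 0.36 for Lif and -0.10 ± 0.27 for Prdm1 (SE), which does not show that the doses acted alike. Gata3, Maf and Ccr4 were also lower at both doses, 2.26-fold, 3.14-fold and 2.78-fold at 2.2 ng/ml. 

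Other losses were larger at 10 ng/ml. Mt2 read 12.7, 14.9 and 11.1 in WT and 13.9, 11.2 and 9.83 in DKO cells at 2.2 ng/ml, all at background, and its difference between doses was -6.39 ± 0.42 (SE, adjusted p = 5.38e-10). Tgm2 read 53.2, 45.2 and 67.9 in WT and 40.5, 42.7 and 47.2 in DKO cells at that dose, with a difference between doses of -4.68 ± 0.32 (SE, adjusted p = 9.57e-10). Il13 read 48.6, 41.5 and 168 in WT and 47.7, 44.7 and 40.4 in DKO cells (adjusted p = 0.448), and Il24 30.4, 23.4 and 113 in WT and 13.6, 8.37 and 10.7 in DKO cells (adjusted p = 0.000727). WT replicate 3 of that dose stood above its mates for both cytokines, and without it the difference between doses was -5.15 for Il13 and -5.24 for Il24 in place of -4.52 and -4.54. For all of these genes the WT arrays at 10 ng/ml were the high group.

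Epas1, the hypoxia factor Hif2a, had a smaller loss at the higher dose, and so did Nfil3 and Ccr8, the 3 TH2 regulators and receptors called higher in the test between doses, against 5 called lower. It read 488, 488 and 369.9 in WT and 254, 175 and 219 in DKO cells at 10 ng/ml, 2.09-fold (95% CI 1.53 to 2.84) lower (adjusted p = 0.00112), and 1365, 1693 and 883 in WT and 151, 101 and 121 in DKO cells at 2.2 ng/ml, 10.3-fold (95% CI 7.58 to 14.1) lower (adjusted p = 1.60e-10). Its difference between doses was 2.31 ± 0.31 (SE, adjusted p = 1.66e-05). Of 399 genes called at both doses, 64 went in opposite directions, 39 of them higher at 10 ng/ml and lower at 2.2 ng/ml and 25 the reverse. Icos was in the first set, with 1564, 1608 and 1239 in WT and 764, 861 and 764 in DKO cells at 2.2 ng/ml, 1.84-fold (95% CI 1.54 to 2.20) lower (adjusted p = 4.66e-05). Tnfrsf9 was in the second, with 87.8, 92.6 and 109 in WT and 146, 193 and 188 in DKO cells, 1.82-fold (95% CI 1.43 to 2.31) higher (adjusted p = 0.00232).

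**Figure D5:**
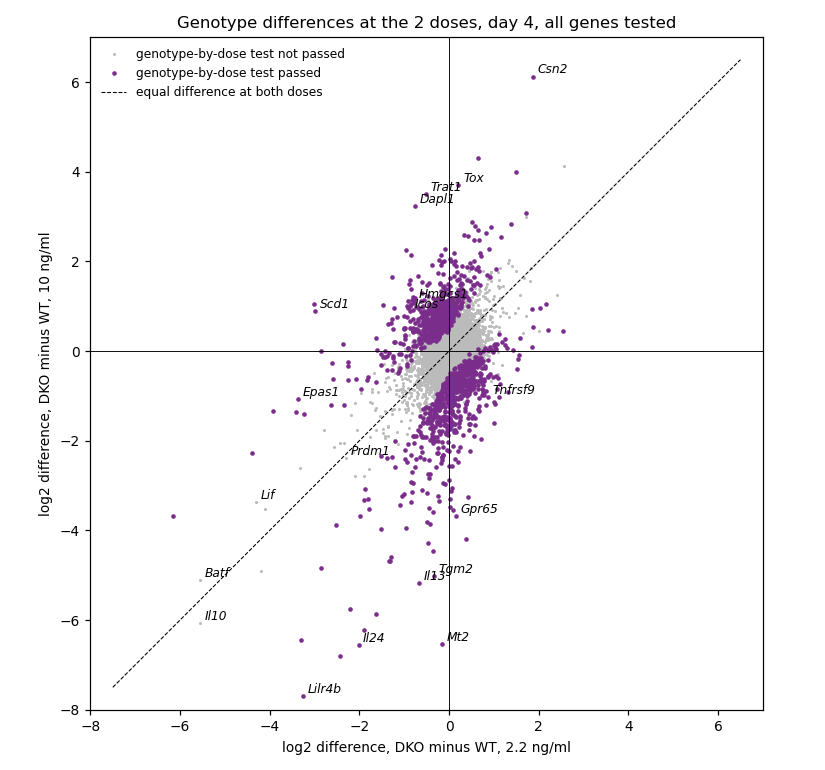
Log2 difference, DKO minus WT, at 2.2 ng/ml (x axis) against 10 ng/ml (y axis) for the 19938 genes tested, with the 1384 genes that passed the test of the difference between doses in purple and a dashed line where the differences are equal. Batf, Il10 and Lif lie near the line, Mt2, Tgm2 and Il13 within 1 of 0 on the x axis and below -5 on the y axis, and Icos and Scd1 to the left of 0 and above it.

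The earlier states shared a part of the changes. At day 2, 541 genes were called (2.71%), 206 higher (1.03%) and 335 lower (1.68%), and they held 94 of the 436 genes lower at least 2-fold at 10 ng/ml (21.6%) as lower and 56 of the 259 higher (21.6%) as higher. At day 0, before stimulation, 13 genes were called (0.0652%), 11 higher (0.0552%) and 2 lower (0.01%), Batf among the latter. Of the 436 lower genes 275, and of the 259 higher genes 153, were called in none of the other 3 genotype comparisons, which does not show that they were equal there. Activation of WT cells from day 0 to day 2, on arrays not used at day 4, called 40.2% of genes, 19.7% higher and 20.5% lower. Of the 436 lower genes, 133 (30.5%) had risen on activation and 94 (21.6%) had fallen, and of the 259 higher genes 106 (40.9%) had risen and 82 (31.7%) had fallen.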

How the data were processed

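Arrays of total RNA were read from the deposited series table. Its values are linear array intensities that the authors had summarised by RMA, per the submitters' processing notes, with no software named. The deposited intensities were taken to log2. Of 35556 probe sets, 21789 had 1 gene symbol, 1621 several and 12146 none, and 21698 of the first matched RefSeq. Genes with several probe sets (999) were represented by the brightest on average, giving 19938 genes. limma 3.58.1 in R 4.3.3 fitted 1 model with the 8 groups over all 24 arrays (16 residual degrees of freedom, prior 7.49), with Benjamini-Hochberg adjustment over all genes and calls under 0.05. On data simulated for the 10 ng/ml comparison over 19938 genes it recovered 17 of 50 genes shifted by 0.5, 44 of 50 by 1, 50 of 50 by 2 and 50 of 50 by 3 (log2), and 11 of 172 calls fell on unshifted genes. The number of arrays limits the precision. The arrays and gene lists (382 genes in 28 lists, 351 measured) were chosen with earlier results of these data known. Genes named are the targeted genes and Irf4, list members with the smallest p or printed for their level and, outside the lists, genes among the 20 largest rises and 20 largest falls whose groups did not overlap. Hamp and Tpbg are named for their promoters, and Gpr65 was chosen after its values were seen. Promoters are from RefSeq (GRCm38.p6). Alternatives covered dim genes, probe sets, cyclic loess, quantile, 16 added, the compared groups alone, a replicate block, a trended robust fit, array weights and leaving out each array. Leaving out arrays at 2.2 ng/ml for that dose's comparison was added after the data were seen.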

Additional observations from a re-analysis of the deposited data

Results flagged for a closer look

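The genotype difference, DKO minus WT, was called unlike between 10 and 2.2 ng/ml at day 4 by limma's test between doses. It called 710 genes with a higher and 674 with a lower value at the higher dose. The values below are log2, DKO minus WT at 10 ng/ml minus the same at 2.2 ng/ml, for the genes given in the report that passed it; a negative value means a more negative genotype difference at 10 ng/ml.

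Among transcription factors the values were -2.03 for Batf3, -2.31 for Fosl2, -2.67 for Atf3, 0.95 for Nfatc1, 2.31 for Epas1, -3.13 for Ahr, -1.40 for Hif1a, 1.42 for Bhlhe40, 1.47 for Nr4a3, 3.49 for Tox, -1.5 for Pparg, -1.64 for Foxo1, 1.23 for Foxp1, -1.03 for Stat2 and -1.29 for Xbp1. Among cytokines and chemokines they were -4.54 for Il24, -4.23 for Il21, -3.54 for Inhba, -4.52 for Il13, -2.98 for Il4, -2.44 for Il5, 1.11 for Csf2, 1.38 for Csf1 and 1.58 for Ccl22. All cytokines of the TH2 list that passed, apart from Csf2, had a negative value.

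Among receptors and ligands they were -1.36 for Cysltr1, -0.95 for Il4ra, -3.23 for Il12rb2, -1.78 for Il18r1, -1.70 for Ctla4, -1.88 for Tnfrsf9, 2.26 for Nrp1, -1.75 for Tnfrsf8, 1.87 for Tnfsf11, 1.69 for Cd40lg, 1.77 for Icos, -2.08 for Il6ra, -1.92 for S1pr1, -0.90 for Ccr7, -3.84 for Gpr65, 2.22 for Tnfsf10, 1.84 for Cd96, 1.92 for Cd69, -1.03 for Cd2, -4.44 for Lilr4b and -4.37 for Lilrb4a. For adaptors and other genes of resting or activated T cells they were -1.09 for Sh2d1a, 4.01 for Trat1, 3.99 for Dapl1, 3.67 for Ifi203 and -3.13 for Ctla2a.

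For secreted, surface, zinc-binding and other proteins they were -6.39 for Mt2, -3.30 for Mt1, -4.33 for Ifitm3, -4.68 for Tgm2, -3.34 for Gatm, -4.09 for Pth, -3.81 for Timp1, -3.68 for Hamp, -2.09 for Ecm1, -0.84 for Tpbg, 4.26 for Csn2, 2.49 for Tex35 and 2.36 for Lin7a. For metabolism and division, where every value was positive, they were 1.32 for Slc2a1, 1.41 for Tpi1, 1.0 for Ldha, 3.89 for Scd1, 1.90 for Hmgcs1, 2.01 for Idi1, 1.54 for Cyp51, 1.41 for Slc1a5, 1.05 for Mki67, 1.26 for Kif11, 1.11 for Ccnb2, 1.23 for Bub1b, 1.57 for Tyms and 1.09 for Rrm2. For markers of other cells they were 1.5 for Ctss, 2.36 for Cd74, 1.33 for Cd79b, 1.47 for Hdc and -1.25 for Epcam.

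Of these 82 genes, 79 passed under every alternative that tested them, up to 22, and Ccr7, Tpbg and Bhlhe40 missed the threshold under at least 1. Single arrays moved 6 of these log2 values so far that the fold changed by a factor of over 1.5. Mt2 was -6.98 without DKO replicate 3 at 10 ng/ml, and without WT replicate 3 at 2.2 ng/ml Il24 was -5.24, Il13 -5.15, Il4 -3.76 and Ifitm3 -5.18. Csn2 was 3.66 without DKO replicate 1 at 2.2 ng/ml. With 16 added before log2, 14 values moved by that much in fold: Il21 to -3.34, Il5 to -1.30, Tox to 2.90, Il18r1 to -1.07, Nrp1 to 1.64, Mt2 to -5.65, Ifitm3 to -3.53, Pth to -2.75, Timp1 to -3.01, Hamp to -2.37, Ifi203 to 2.68, Trat1 to 3.24, Lin7a to 1.49 and Scd1 to 2.72. Gpr65, Hamp and Tpbg were chosen after their values or promoters were seen.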

How the results depend on the processing

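Genes lower at least 2-fold at 10 ng/ml were 284 in place of 436 when dim genes were left out, which leaves 9969 genes to test, and genes higher at least 2-fold were 159 in place of 259 with 16 added before log2. Leaving out each of the 6 arrays gave 939 to 1199 genes higher, 936 to 1169 lower, 255 to 305 higher at least 2-fold and 412 to 462 lower at least 2-fold. At 2.2 ng/ml, an alternative chosen after seeing the data, it gave 171 to 386 higher, 293 to 433 lower, and at least 2-fold 66 to 87 higher and 143 to 170 lower; for the test between doses, 478 to 883 higher, 509 to 713 lower, and at least 2-fold 276 to 442 higher and 347 to 446 lower. The causes were not tested. All 97 genes of the report called at 10 ng/ml kept their call and direction under each alternative that tested them, up to 16. The median difference over all genes was 0.0314, 0.0154 after cyclic loess and 0.0521 after quantile normalization.

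Same-numbered arrays of the genotypes at the higher dose did not deviate together (correlations of deviations from the group means 0.044, -0.072 and 0.044). The replicate numbers thus gave no sign of pairing between the genotypes at that dose. Whether same-numbered arrays of a genotype deviated together across the doses was not tested, and the test between doses assumed no such pairing. With the replicate block 2546 genes were called and without it 2545, of which 2456 were the same genes.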

Other observations

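Genes next to the targeted loci were read for all genotype comparisons. Of the 20 nearest measured genes around Batf, 2 were called at 10 ng/ml, Tgfb3 and Ift43, at -2.57 and -1.0 (log2), and 0 at 2.2 ng/ml, day 2 and day 0, where 12.8%, 3.71%, 2.71% and 0.0652% of all genes were called. Of the 20 around Batf3, 5 were called at 10 ng/ml (Angel2, Atf3, Dtl, Ints7 and Nek2) and 0 in the other 3 comparisons. Before stimulation, 13 genes were called between the genotypes. Bcl3, a nuclear NF-kB cofactor, was higher in DKO cells at day 0 by 0.78 and lower at 10 ng/ml by a log2 value of -2.07, and Iigp1, an interferon-inducible GTPase, was higher at both, by 1.89 and 1.04.

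Genes of opposite direction at the doses included further sterol and fatty acid enzymes. Fads2, a fatty acid desaturase, was 1.04 at 10 ng/ml and -3.02 at 2.2 ng/ml (log2, DKO minus WT), and the sterol enzymes Msmo1 and Nsdhl were 1.04 and 0.76 at 10 ng/ml and -0.84 and -1.16 at 2.2 ng/ml. In the reverse direction, Pik3ap1, an adaptor of phosphoinositide signalling, was -1.6 at 10 ng/ml and 1.0 at 2.2 ng/ml, and Igf1r, a growth factor receptor, -0.9 and 0.76. These genes were chosen after their values were seen.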
